A study of Homo sapiens with 12 samples.

Results

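GNG2 encodes a gamma subunit of heterotrimeric G proteins. It is described here with 9 relatives, the gamma subunits GNG3, GNG4, GNG5, GNG7, GNG10, GNG11 and GNG12 and the beta subunits GNB1 and GNB4. These 10 genes are rows of a table of 61552 genes, and all 10 were among the 20304 genes that passed the filter on low counts and were tested. GNG2 was chosen by measured values of these same libraries, since its response to ML210 differed between the cell lines, so its values are a description and carry no test. The other 9 were taken as members of its family.

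The 12 libraries were made from the mRNA of human neuroblastoma cells in culture, all labelled wild type. They form 4 groups of 3: SK-N-AS without treatment (control), SK-N-AS kept overnight with ML210, and the same pair for SK-N-BE(2). The dose of ML210 is not given in the sources used here. SK-N-AS and SK-N-BE(2) are established neuroblastoma lines, which the study calls MYCN-nonamplified and MYCN-amplified. ML210 is an inhibitor of GPX4, the enzyme that reduces lipid peroxides in membranes, and cells that lack this activity can die by ferroptosis, in which iron drives lipid peroxidation. The study asked how lines of either MYCN status respond to it. It holds 1 line of each status, so an effect of MYCN status and one of the line itself cannot be told apart. The libraries carry a batch number from 1 to 3 that equals the replicate number, and no label states separate cultures. The p-values therefore reflect the spread among these libraries, which may be technical.

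Library totals ran from 54047293 to 83481963 counted reads. MYCN, a neuroblastoma oncogene and transcription factor, stood at 3458 to 3933 CPM (counts scaled to a common library total) in the 6 libraries labelled SK-N-AS and at 0.0607 to 0.24 CPM in the 6 labelled SK-N-BE(2). That is the opposite of what the labels say, so each line is named below by its label only, and a direction between lines is a direction between labels. Summed markers of adrenergic neuroblastoma cells were 8165 to 9378 CPM in libraries labelled SK-N-AS and 1256 to 1888 CPM in those labelled SK-N-BE(2). Summed mesenchymal markers were 232.8 to 307.1 and 2266 to 2892 CPM in the same order, and 4 epithelial markers together stayed under 0.5 CPM. The 4 endothelial markers summed to 13.3 to 36.8 CPM labelled SK-N-AS, most of it CDH5, and to 0.65 to 2.23 CPM labelled SK-N-BE(2). The blood markers summed to 1.26 to 3.27 CPM labelled SK-N-AS. Labelled SK-N-BE(2) they summed to 263.4 to 329.3 CPM in control and 162.6 to 288.9 CPM after ML210, nearly all of it PTPRC, while CD3E was at 0 there and CD14 was under 0.5 CPM. The part of the endothelial and blood markers in the results below was not tested. The SK-N-BE(2) ML210 library of replicate 3 stood apart from its group, and without it 1242 genes were called for ML210 in that line label where 279 were called with it. For some genes the control library of replicate 3 lay apart in the same direction. The adrenergic marker CHGA was at 96.9, 174 and 364.3 CPM in SK-N-BE(2) control and at 39.3, 75.6 and 244 CPM in SK-N-BE(2) ML210. How many genes did so was not counted.

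A G protein is a switch built of an alpha, a beta and a gamma subunit, held at the inner face of the plasma membrane. A receptor that has bound its ligand makes the alpha subunit exchange GDP for GTP, and alpha then separates from the beta-gamma pair. Beta and gamma stay together as 1 unit, which acts on potassium channels, phospholipase C beta, adenylyl cyclases and receptor kinases. In neurons and sympathetic cells, the lineage from which neuroblastoma arises, the pair carries much of the inhibitory signal of noradrenaline, dopamine and opioid receptors.

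Each gamma subunit ends in a short cysteine box to which a lipid is attached, and this lipid ties the beta-gamma pair to the membrane. The last 30 coding bases of the 8 gamma genes, from the GENCODE 29 transcripts on GRCh38, are shown because this is where the lipid class of each isoform is set. The capitals mark the 4 codons of the box, which stand directly before the stop codon.
GNG2: gagaagaagtttttcTGTGCCATCCTTtaa
GNG3: gagaagaagttcttcTGTGCTCTCCTCtga
GNG4: gagaagaagttctttTGTACCATTCTCtaa
GNG5: agaccccagaaagtcTGTTCCTTTTTGtag
GNG7: aaggacaagaaacctTGTATTATTTTAtaa
GNG10: cgggagcctagatccTGTGCTTTACTCtga
GNG11: aaagaaaaaggcagcTGTGTTATTTCAtaa
GNG12: aaggataaaaaaactTGCATCATCTTAtag
The last codon was TCA in GNG11 and CTT, CTC, TTA or TTG in the other 7. GNG11 is known to carry the shorter farnesyl lipid and the others the longer geranylgeranyl lipid. All complete coding transcripts of a gene shared the end shown, 6 of 6 for GNG2 and 5 of 5 for GNG4.

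GNG2 lies on the plus strand at chr14:51826195-51979342 (GRCh38, GENCODE 29, identifier ENSG00000186469) with 6379 exonic bases. RefSeq lists 5 start sites for it, and the 250 bases before the first, chr14:51825924-51826173 on the plus strand of GRCh38.p14, are shown because GNG2 is the gene whose level the results turn on.
GNG2 upstream: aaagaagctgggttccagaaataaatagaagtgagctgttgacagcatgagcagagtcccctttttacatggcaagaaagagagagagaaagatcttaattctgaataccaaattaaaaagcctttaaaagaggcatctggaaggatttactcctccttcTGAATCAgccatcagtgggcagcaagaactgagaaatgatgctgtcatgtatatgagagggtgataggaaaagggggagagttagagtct
The capitals mark a match to TGANTCA, a loose form of the AP-1 motif in which N is any base, here A. Of 35116 RefSeq windows of this length, 6.57% held this loose form on either strand. Of the 5 GNG2 windows 1 held it, the window shown. None of the 5 GNG2 windows held the E-box CACGTG to which MYC and MYCN bind (6.34% of all windows) or the antioxidant response core TGACNNNGC (10.91%). A match is a description of the letters and not a bound site.

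GNG2 was lower after ML210 in the libraries labelled SK-N-BE(2) and level in those labelled SK-N-AS. In SK-N-AS control it was measured at 145.9, 144.5 and 135.1 CPM in replicates 1, 2 and 3, a mean of 141.8 ± 5.9 (SD, n = 3). In SK-N-AS ML210 it was 143.6, 138.0 and 146.6 CPM, a mean of 142.7 ± 4.38 (SD, n = 3), and the ranges overlapped. In SK-N-BE(2) control it was 148.5, 157.2 and 148.8 CPM, a mean of 151.5 ± 4.91 (SD, n = 3). In SK-N-BE(2) ML210 it was 87.8, 96.1 and 82.9 CPM, a mean of 88.9 ± 6.65 (SD, n = 3). All 3 libraries of this last group lay below all 9 others. From 17632 to 31206 GNG2 reads were counted per group, so counting error was small beside the spread between libraries.

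The fitted ML210 response of GNG2 was -0.77 on the log2 scale (SE 0.0604) in the line labelled SK-N-BE(2) and 0.01 (SE 0.06) in the line labelled SK-N-AS. The responses differed by -0.78 (SE 0.085). Within batches the change was -40.9%, -38.9% and -44.3% labelled SK-N-BE(2), and -1.59%, -4.5% and 8.54% labelled SK-N-AS. The direction was thus the same in 3 of 3 batches in the first line label and mixed in the second. The difference of the responses is the contrast that chose GNG2, and by the edgeR test it was the 1 gene of 20304 called there (0.00493%), from which nothing is read. The 3 genes just outside that threshold were ST6GALNAC5, with a difference of 0.92 (SE 0.163), LINC01116, with -0.83 (SE 0.147), and BRI3, with 0.63 (SE 0.11). In SK-N-BE(2) control ST6GALNAC5 was at 1.69 ± 0.196 CPM, LINC01116 at 46.1 ± 5.67 CPM and BRI3 at 75.2 ± 4.62 CPM (SD, n = 3).

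Ordered by mean level, SK-N-BE(2) ML210 stood lowest, then SK-N-AS control, SK-N-AS ML210 and SK-N-BE(2) control. The 2 SK-N-AS groups did not differ beyond their spread. SK-N-BE(2) control lay just above both without overlap. Between the line labels, GNG2 therefore differed by 0.09 (SE 0.06) in controls and by -0.68 (SE 0.0604) after ML210, on the log2 scale. In bulk RNA of this kind, fewer cells that express a gene and less of its RNA per cell cannot be told apart.

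**Figure D1:**
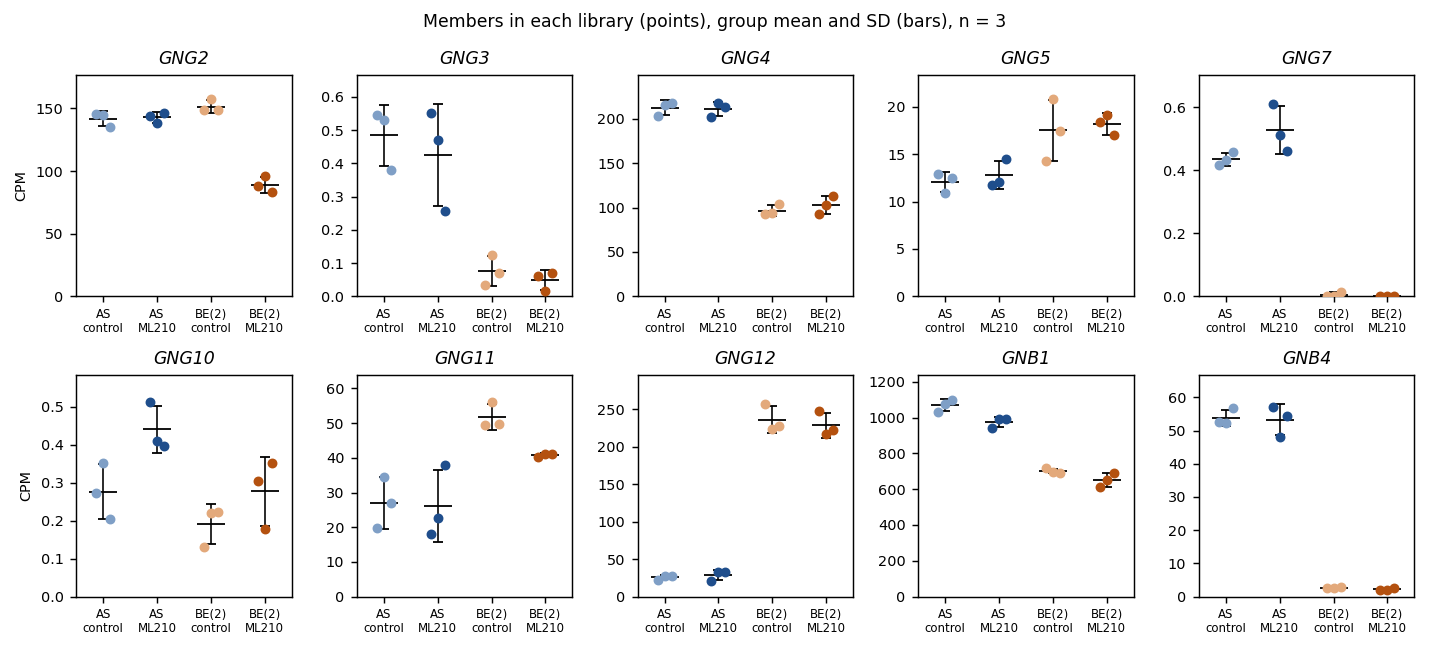
Level of each gene in CPM (vertical axis, a separate scale for each gene) in the 4 groups, where AS and BE(2) stand for the labels SK-N-AS and SK-N-BE(2). Points are libraries and bars are the group mean and SD (n = 3); the 3 SK-N-BE(2) ML210 points of GNG2 lie at 82.9 to 96.1 CPM, below its other 9.

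None of the other 9 members was called for ML210 by the edgeR quasi-likelihood test with Benjamini-Hochberg adjustment over all genes tested. Of all genes, 0.0296% were called in the line labelled SK-N-AS and 1.37% in the line labelled SK-N-BE(2), and 1.23% over both, so a count of 0 among 9 is near the background. At an unadjusted p under 0.05 stood 1 of the 9 in each line label, GNB1 in the first and GNB4 in the second, beside 6.89% and 13.5% of all genes tested. DESeq2 called 0 of the 9 as well. The median response of the 9 was -0.01 labelled SK-N-AS and -0.11 labelled SK-N-BE(2) on the log2 scale, beside -0.01 and 0.0 over all genes tested. The second median was -0.08 without GNG7, which had 1 read in SK-N-BE(2) control and 0 in SK-N-BE(2) ML210. None of the 9 was called for the difference of the responses, by edgeR or DESeq2, and none had an unadjusted p under 0.05 there, beside 7.16% of all genes tested.

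**Figure D2:**
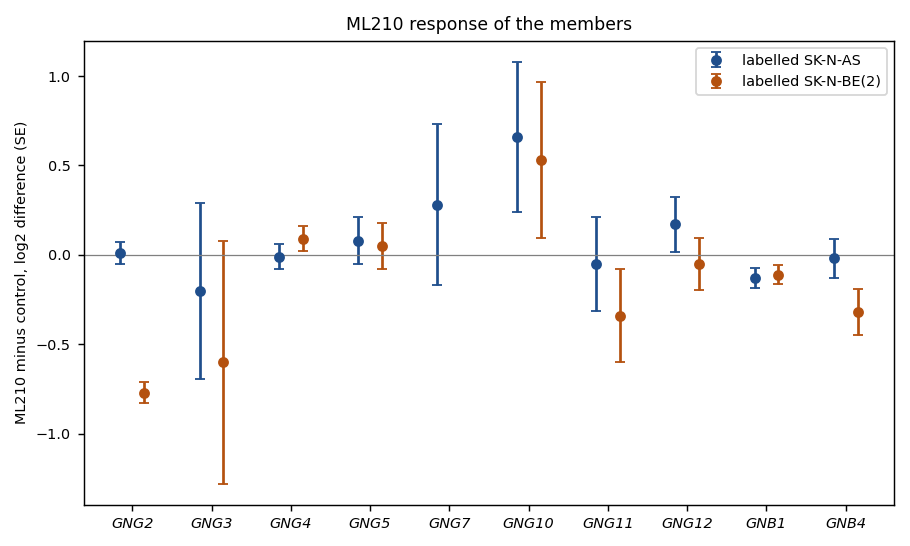
ML210 minus control on the log2 scale (vertical axis) for each gene, with its SE as the bar, in the line labelled SK-N-AS and the line labelled SK-N-BE(2) (3 libraries a group). GNG2 stands at -0.77 in the second and at 0.01 in the first; GNG7 is left out of the second because only 1 read was counted there, and the GNG2 values are those that chose it.

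Among the gamma subunits, GNG4 did not follow GNG2. GNG4 is a neuronal and neuroendocrine isoform. It was measured at 92.7, 93.4 and 103.7 CPM in SK-N-BE(2) control and at 93.2, 103.0 and 112.5 CPM in SK-N-BE(2) ML210, ranges that overlap. The difference was 0.09 (SE 0.0706, adjusted p = 0.66, edgeR) and was higher in 3 of 3 batches. In SK-N-AS control it was 202.8, 216.1 and 218.2 CPM and in SK-N-AS ML210 202.2, 218.4 and 212.8 CPM. All 6 of these values lie above all 6 values labelled SK-N-BE(2), and the difference between labels was -1.09 (SE 0.0503, adjusted p = 9.9e-11, edgeR).

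GNG12 differed most between the line labels among the well-counted gamma subunits that are members. It is a widely expressed isoform. It stood at 257.3, 223.6 and 227.8 CPM in SK-N-BE(2) control and 247.4, 216.5 and 222.0 CPM in SK-N-BE(2) ML210. In SK-N-AS control it was 22.5, 26.9 and 27.6 CPM, and in SK-N-AS ML210 21.0, 32.6 and 32.9 CPM. The label SK-N-BE(2) was higher by 3.09 on the log2 scale (SE 0.114, adjusted p = 2.88e-10, edgeR), with no overlap, and ML210 changed it by 0.17 (SE 0.152) and -0.05 (SE 0.147) labelled SK-N-AS and SK-N-BE(2), neither called.

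GNG11, the farnesylated isoform of the 8, was higher in the label SK-N-BE(2) too. Its libraries were at 49.4, 56.1 and 49.7 CPM in SK-N-BE(2) control and at 40.3, 41.0 and 41.2 CPM in SK-N-BE(2) ML210. These ranges do not overlap and the change had 1 direction in 3 of 3 batches, but the response of -0.34 (SE 0.259, adjusted p = 0.66, edgeR) did not pass the test. In SK-N-AS control it was 19.7, 34.6 and 26.9 CPM, and in SK-N-AS ML210 17.9, 22.7 and 37.8 CPM, the widest relative spread of the members above 1 CPM. The difference between labels was 0.79 (SE 0.185, adjusted p = 0.0028, edgeR). Replicate 1 was lowest in both SK-N-AS groups for GNG11 and for GNG12. In the same libraries, 35 genes found mainly in the other line label, picked after their values were seen, had a median of 0.244% and 0.319% of their level there in replicate 1 of SK-N-AS control and ML210, and of 1.06% to 1.59% in replicates 2 and 3. The part of this in the spread of GNG11 and GNG12 was not tested.

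GNG5, a broadly expressed isoform, was at 10.9 to 14.5 CPM over the 6 libraries labelled SK-N-AS and 14.3 to 20.8 CPM over the 6 labelled SK-N-BE(2). These ranges overlap, and the label SK-N-BE(2) was higher by 0.52 (SE 0.0936, adjusted p = 0.000151, edgeR). Its ML210 responses were 0.08 (SE 0.133) and 0.05 (SE 0.131). Of its exonic bases 30.9% are shared on the same strand with another annotated gene, which averaged 0.0304 CPM or less in each group. GNG5 also has processed copies in the genome. Its counts are therefore less certain than those of GNG4, GNG11 and GNG12, and may be understated if shared reads were left out. Of the GNG2 exonic bases, 7.51% are shared with a gene on the opposite strand, which averaged 0 CPM in each group.

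The counts of the other 3 gamma subunits were close to the floor of detection. GNG7, an isoform known from striatal neurons, had 183 reads in all libraries labelled SK-N-AS and 1 read in all labelled SK-N-BE(2). The ratio of levels was 193, with an exact 95% interval from 34.2 to 7650 that covers counting error only. It was called between labels (adjusted p = 2.89e-07, edgeR). GNG3, a neuronal isoform, had 175 reads labelled SK-N-AS and 26 labelled SK-N-BE(2), a difference of -2.84 (SE 0.415, adjusted p = 2.24e-05, edgeR). The gene BSCL2 on the opposite strand covers 50.7% of the GNG3 exons, and whether counting used strand is not given in the sources used here. GNG10, another broadly expressed isoform, had 135 and 96 reads in the same order, and its difference of -0.59 (SE 0.303, adjusted p = 0.0919, edgeR) was not called. A readthrough gene shares 73.1% of the GNG10 exons on the same strand and averaged 0.00535 CPM or less in each group. How shared reads were counted is not given in the sources used here. If they were left out, GNG10 is understated, which was not tested.

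Both beta subunits among the members are widely expressed partners of gamma. GNB1 was measured at 1032, 1077 and 1096 CPM in SK-N-AS control and at 941, 992.9 and 991.3 CPM in SK-N-AS ML210. In SK-N-BE(2) control it was 715.8, 698.4 and 690.4 CPM, and in SK-N-BE(2) ML210 610.1, 651.5 and 687.3 CPM. Every ML210 library was below its own batch control in both line labels, by 7.79% to 9.55% labelled SK-N-AS and by 0.458% to 14.8% labelled SK-N-BE(2), and the ranges did not overlap in either. The fitted responses of -0.13 (SE 0.0543, adjusted p = 0.689) and -0.11 (SE 0.0544, adjusted p = 0.405, edgeR) did not pass the test over all genes. Between labels GNB1 was lower in SK-N-BE(2) by -0.6 (SE 0.0386, adjusted p = 3.65e-09, edgeR).

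GNB4 stood at 52.7, 52.2 and 56.7 CPM in SK-N-AS control and 57.2, 48.1 and 54.4 CPM in SK-N-AS ML210. In SK-N-BE(2) control it was 2.5, 2.69 and 2.85 CPM, and in SK-N-BE(2) ML210 1.85, 1.91 and 2.66 CPM. The labels did not overlap, and the difference of -4.48 (SE 0.091, adjusted p = 4.01e-14, edgeR) had the smallest adjusted p of the 9 tested members. The ML210 response labelled SK-N-BE(2) was -0.32 (SE 0.13, adjusted p = 0.279, edgeR), and was lower in 3 of 3 batches with overlapping ranges. Without SK-N-BE(2) ML210 replicate 3, the library that stood apart, it was -0.53 and was called (adjusted p = 0.0124), and over both line labels it was -0.27 and called (adjusted p = 0.0391). Over the alternatives tried its adjusted p in that line label ran from 0.0124 to 0.637. A gene on the opposite strand covers 27.6% of the GNB4 exons and averaged 0 CPM in each group. If counting ignored strand and left out shared reads, GNB4 is understated, which was not tested.

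Members whose ML210 and control ranges did not overlap numbered 3 of 9 labelled SK-N-AS (GNG7, GNG10 and GNB1) and 2 of 9 labelled SK-N-BE(2) (GNG11 and GNB1), besides GNG2. Over all genes tested this held for 14.9% and 17.4%. Between the line labels, 8 of the 9 were called, 3 higher and 5 lower in SK-N-BE(2). With 77.4% of all genes called in that comparison, 38.6% higher and 38.8% lower, a count of 8 of 9 is near the background. Scaling by library totals moved the median of all genes in this comparison from 0.01 to 0.24 and the split of calls from 7843 higher and 7874 lower to 9438 and 6321, and the 8 called members kept their calls and directions. The 6 and 6 libraries did not overlap for 7 of the 9, beside 61.1% of all genes tested. The median difference between labels was -0.6 over the 9 and 0.01 over all genes on the log2 scale. Called members kept their direction in controls alone and in ML210 libraries alone, with the weakest call for GNG11 in ML210 libraries alone (0.64, SE 0.262, adjusted p = 0.0499, edgeR).

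Levels of different genes are compared next per kilobase of exon, in CPM per kb. In SK-N-AS control the 8 gamma subunits together made 87.6 ± 3.19 CPM per kb (SD, n = 3). GNG4 led with 39.3 ± 1.55, followed by GNG2 with 22.2 ± 0.924, GNG5 with 10.9 ± 0.963, GNG11 with 8.86 ± 2.44 and GNG12 with 5.44 ± 0.586 CPM per kb. GNG5 and GNG11 overlapped between libraries, and GNG3, GNG10 and GNG7 were under 1 CPM per kb each. GNG2 thus made 25.4 ± 1.62% of the gamma total there, and 25.4 ± 1.84% in SK-N-AS ML210.

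In SK-N-BE(2) control the 8 made 125 ± 1.88 CPM per kb, and the order was another. Among these 8, GNG12 led with 50 ± 3.88 and GNG2 followed with 23.7 ± 0.77 CPM per kb. GNG4 with 17.9 ± 1.14, GNG11 with 16.9 ± 1.25 and GNG5 with 15.8 ± 2.92 CPM per kb overlapped. GNG12 made 40.2 ± 3.36% of the total there and 6.2 ± 0.49% in SK-N-AS control, and GNG4 14.4 ± 1.08% and 44.9 ± 0.817%.

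After ML210 the libraries labelled SK-N-BE(2) held 111 ± 1.83 CPM per kb of the 8 gamma subunits. Without GNG2 the sum was 101 ± 1.18 in control and 97.4 ± 2.01 CPM per kb after ML210. GNG2 itself was at 23.7 ± 0.77 and 13.9 ± 1.04 CPM per kb, and its share was 19.1 ± 0.354% and 12.5 ± 0.942% (SD, n = 3). Among the 8 it went from the place behind GNG12 to the range of GNG11, which stood at 13.4 ± 0.15 CPM per kb. These sums follow from the same GNG2 values that chose it. CPM per kb divides by all annotated exon bases, so an isoform with unused long exons is understated. The sums and shares take GNG5 and GNG10 as counted, though both share exons with other genes.

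**Figure D3:**
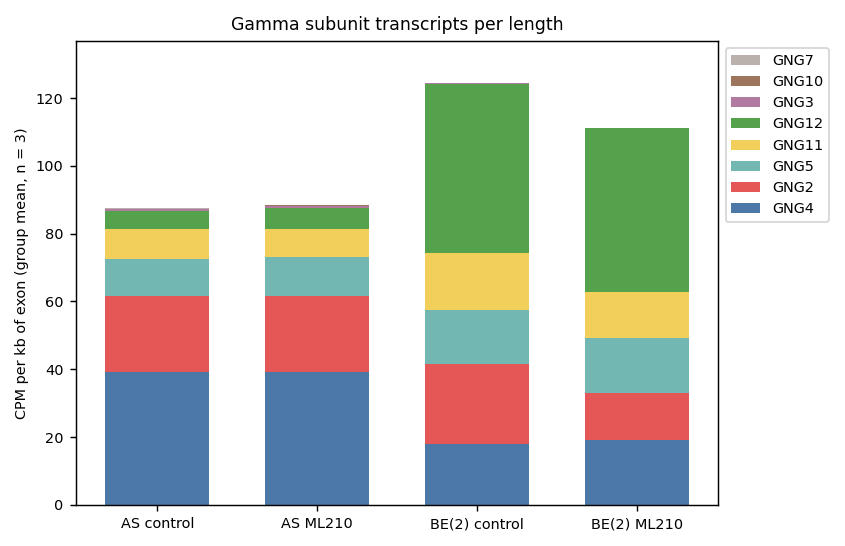
Group means (n = 3) of the 8 gamma subunits in CPM per kb of exon, stacked from 0, for the 4 groups. GNG4 is the widest band labelled SK-N-AS (39.3 in control) and GNG12 labelled SK-N-BE(2) (50 in control), and the GNG2 band goes from 23.7 to 13.9 with ML210 in the latter.

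Of the 5 other gamma subunits, GNG8 alone passed the filter, an isoform known from olfactory neurons. GNG13, GNG14, GNGT1 and GNGT2 were at 0.192 CPM or less in every library. GNG8 was at 7.08, 7.23 and 11.6 CPM in SK-N-BE(2) control and 3.39, 4.32 and 6.88 CPM in SK-N-BE(2) ML210, and at 0.0394 to 0.641 CPM labelled SK-N-AS. Its difference between labels was 5.04 (SE 0.392, adjusted p = 1.65e-07, edgeR). The response of -0.83 labelled SK-N-BE(2) (SE 0.413, adjusted p = 0.423, edgeR) was not called, though with replicate as a block within each line it was -0.85 and called (adjusted p = 0.019), as was the mean of both lines (-1.22, adjusted p = 0.00674). Only 216 exonic bases are annotated for GNG8, so it was kept out of the shares per length. With it, the order labelled SK-N-BE(2) was another. GNG8 stood at 40 ± 11.9 CPM per kb in SK-N-BE(2) control, in the range of GNG12 and above GNG2, and at 22.5 ± 8.37 CPM per kb in SK-N-BE(2) ML210 (SD, n = 3). The GNG2 share was then 14.5 ± 1.14% and 10.4 ± 1.19%, and 25 ± 1.79% in SK-N-AS control.

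The 3 other beta subunits were tested and none was called for ML210 by edgeR, nor had any an unadjusted p under 0.05 in either line label. GNB2, the other main beta subunit, was at 579.4 CPM in SK-N-AS control and 340.1 in SK-N-BE(2) control (difference -0.78, SE 0.0479, adjusted p = 2.07e-09, edgeR). GNB5, the beta subunit that pairs with RGS proteins in neurons, was at 8.36 and 32.6 CPM (1.83, SE 0.0663, adjusted p = 8.11e-12, edgeR). Per kilobase, GNB1 made 44 ± 0.478% and GNB2 53.6 ± 0.54% of the 5 beta subunits in SK-N-AS control, and 47.2 ± 0.706% and 51.4 ± 0.732% in SK-N-BE(2) control. GNB4 made 2.02 ± 0.0633% and 0.165 ± 0.0136% (SD, n = 3). The 5 beta subunits summed to 378 ± 15.3 and 232 ± 4.65 CPM per kb.

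Genes that act with the beta-gamma pair were taken as lists, 98 genes with the other beta and gamma subunits included, of which 77 were tested. Labelled SK-N-AS, none was called for ML210 by edgeR or DESeq2, and 3 had an unadjusted p under 0.05, beside 6.89% of all genes tested. In the line labelled SK-N-BE(2) edgeR called 1, higher, which is KCTD12, beside 0.818% of all genes called higher. DESeq2 added PLCB1, as did a fit with replicate as a block, and the block within each line called 10 of the 77, 6 higher and 4 lower. DESeq2 called 3.89% of all genes tested and the block within each line 6.83%. The median response of the 77 was -0.01 labelled SK-N-BE(2), beside 0.0 over all genes. None was called for the difference of the responses by edgeR or DESeq2, and 2 had an unadjusted p under 0.05, beside 7.16% of all genes tested.

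KCTD12 binds beta-gamma at the GABA-B receptor and speeds the desensitisation of its potassium current. It was at 113.2, 81.4 and 109.7 CPM in SK-N-BE(2) control and at 180.3, 144.4 and 141.8 CPM in SK-N-BE(2) ML210, with no overlap. The response was 0.62 (SE 0.129, adjusted p = 0.0407, edgeR). In SK-N-AS control it was 11.8, 12.1 and 14.4 CPM and in SK-N-AS ML210 15.3, 17.2 and 16.4 CPM, with no overlap either, and the response of 0.36 (SE 0.136, adjusted p = 0.65) was not called. The call rests on a narrow margin, since it was lost on leaving out any 1 library other than SK-N-AS control replicate 3 and SK-N-BE(2) ML210 replicate 3. Adjusted p then ran from 0.052 without SK-N-AS control replicate 1 to 0.151 without SK-N-BE(2) ML210 replicate 1. PLCB1, a phospholipase C that beta-gamma activates, was at 52.1 ± 4.16 CPM in SK-N-BE(2) control and 40.5 ± 3.78 CPM in SK-N-BE(2) ML210 (SD, n = 3), a response of -0.36 (SE 0.0876, adjusted p = 0.0594, edgeR).

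Between the line labels 69 of the 77 were called, 26 higher and 43 lower in SK-N-BE(2), against 77.4% of all genes. Of all genes tested, 38.6% were higher and 38.8% lower. Of 14 alpha subunits 3 were higher and 8 lower. GNAO1, the main alpha subunit of neurons and a chief donor of beta-gamma, was at 434.1 CPM in SK-N-AS control and 19.8 CPM in SK-N-BE(2) control (-4.34, SE 0.294, adjusted p = 6.34e-07, edgeR). GNAI2, an inhibitory alpha subunit found in most cells, went the other way with 120 and 233.3 CPM (0.95, SE 0.0463). GNAZ (-1.66) and GNA11 (-0.85) were lower and GNA12 (0.37) was higher.

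Of 18 effectors 4 were higher and 12 lower in SK-N-BE(2), beside 38.6% and 38.8% of all genes tested. GRK3, a kinase that beta-gamma brings to active receptors, was at 243.2 and 25.5 CPM in the 2 controls (-3.27, SE 0.0848, adjusted p = 1.56e-12, edgeR). The adenylyl cyclases ADCY9 (-2.3) and ADCY1 (-3.36) were lower and ADCY6 (0.7) higher, and the phospholipase PLCB3 was higher (1.02). Of 25 receptors 9 were higher and 15 lower, beside the same shares of all genes. The dopamine receptor DRD2 was at 151.7 CPM in SK-N-AS control and 0.442 CPM in SK-N-BE(2) control (-8.84, SE 0.238), ADCYAP1R1, a receptor for PACAP, at 46.5 and 0.607 CPM, and the alpha-2 adrenergic receptor ADRA2C at 66.5 and 3.64 CPM. The thrombin receptor F2R was at 3.06 and 125.3 CPM (5.23, SE 0.495), and GABBR1 (1.4) and S1PR2 (1.14) were higher as well.

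Of 8 genes for assembly and lipidation 4 were higher and 3 lower in SK-N-BE(2), beside 38.6% and 38.8% of all genes tested. The same shares stand beside the KCTD and RGS counts that follow. The chaperones of alpha subunits RIC8A (1.64, SE 0.0338) and RIC8B (0.65) were higher, and PDCL (-0.41), a cofactor in folding beta-gamma, was lower. PGGT1B, the beta subunit of the enzyme that adds geranylgeranyl to gamma subunits, was higher by 0.26 (SE 0.0733). FNTB, its counterpart for farnesyl, stood at -0.32 (SE 0.0689, adjusted p = 0.000748, edgeR) but at -0.09 and not called with library totals as the scale. ICMT, which methylates the lipid-bearing end, was lower (-0.62, SE 0.0377). Of 5 KCTD proteins 4 were higher, KCTD12 most among those above the level minimum with 3.12 (SE 0.1), then KCTD2 (0.89) and KCTD5 (0.29), and KCTD17 was lower (-1.53). Of RGS proteins that bind GNB5, 2 were tested and both were lower, RGS9 (-0.96, SE 0.212) and RGS11 (-2.26, SE 0.335), and RGS9BP, the anchor protein of RGS9, was not called.

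**Figure D4:**
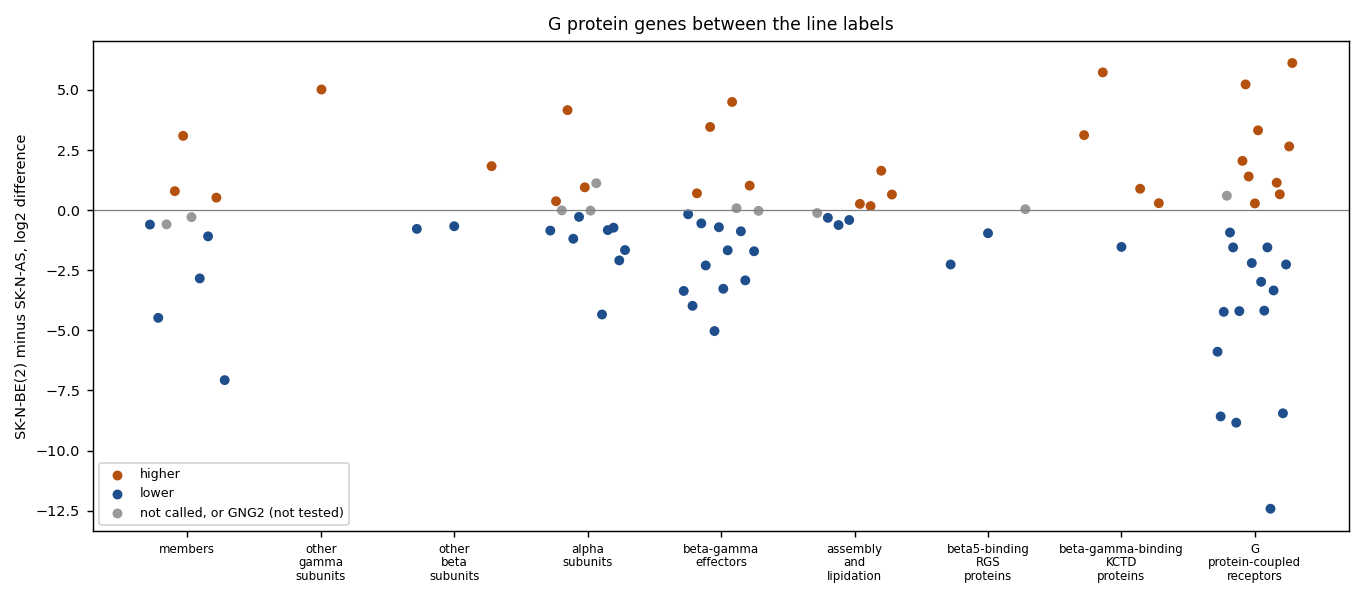
Difference between the labels, SK-N-BE(2) minus SK-N-AS, on the log2 scale (vertical axis), 1 point for each tested gene of each list (horizontal axis), coloured by the edgeR call. Receptors run from OPRM1 at -12.42 to VIPR2 at 6.12; fitted values of genes with very few reads in 1 label, such as OPRM1 and GNG7, depend on the prior count.

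The genes whose log2 CPM ran most like that of GNG2 over the 12 libraries, out of 10921 genes compared, were RBM22 (Pearson r 0.876), HNRNPA2B1 (0.86), FAM222A-AS1 (0.854), CD46 (0.842) and TAF15 (0.835). With values centred within each line label, r was 0.837, 0.825, 0.809, 0.801 and 0.815. The points are libraries of 2 lines that share treatment and batch, so these values are a description. RBM22, a splicing factor, was at 77.1 ± 0.613 CPM in SK-N-BE(2) control and 66.6 ± 3.76 CPM in SK-N-BE(2) ML210, a smaller step than that of GNG2. HNRNPA2B1, an RNA-binding protein, was at 1270 ± 42.5 and 1026 ± 97.2 CPM, and FAM222A-AS1, a non-coding RNA, at 8.25 ± 1.25 and 3.74 ± 1.24 CPM (SD, n = 3). Among the members compared, within-line r with GNG2 was 0.575 for GNB4, 0.459 for GNB1 and 0.403 for GNG11. It was 0.04 for GNG12, -0.059 for GNG5 and -0.458 for GNG4. Each r includes the GNG2 values that chose it.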

How the data were processed

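The deposited values were whole-number counts per gene, not normalized. Per the submitters' processing notes, the authors' tools were HISAT2 2.2.1, featureCounts 2.0.5, FastQC and Trimmomatic (as 1.4), on GRCh38. For strand, multi-mapping reads and annotation, the settings were not given in the sources used here. Per the labels' protocols, libraries came from a stranded mRNA kit.

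The analysis ran in R 4.3.3 with edgeR 4.0.16. The filter filterByExpr, by group, kept 20304 genes, and TMM scaled the libraries. All 12 libraries entered 1 model of the 4 group means (common dispersion 0.0223, residual degrees of freedom 8), tested two-sided by the robust quasi-likelihood test. P-values were adjusted by Benjamini-Hochberg across the tested genes, and calls were made at an adjusted p under 0.05. The steps were tested on simulated counts. DESeq2 1.42.0 was an alternative. CPM used TMM-scaled totals; lengths and coordinates came from GENCODE 29.

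The members and lists were chosen with earlier results of these data known. Beside the members, up to 4 genes per list called for ML210, up to 3 each way between line labels at a mean log2 CPM no lower than 2, and the 5 genes most like GNG2 were named; GNG8, PLCB1, RGS11, RGS9BP, OPRM1, VIPR2, single marker genes and the untested gamma subunits were named after their values were seen.

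The labels give a batch number, equal to the replicate number. On that ground same-numbered libraries were taken as paired for the changes within batches. The main model held no batch term, and replicate blocks were alternatives to it. Deviations of same-batch control and ML210 libraries correlated at 0.357, 0.068 and 0.121 labelled SK-N-AS and 0.096, 0.12 and 0.169 labelled SK-N-BE(2). Alternatives were other scaling, no filter, replicate blocks, each library left out, and fits on fewer groups. Intervals cover counting error only.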

Additional observations from a re-analysis of the deposited data

Results flagged for a closer look

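The ML210 response of GNG2 differed between the line labels by -0.78 on the log2 scale, with all 3 batches lower labelled SK-N-BE(2) and mixed directions labelled SK-N-AS. It is listed here because 2 groups differed under the same contrast, which is also how GNG2 was chosen. No member, GNG2 included, had all batches of 1 line label moving against all batches of the other. Dixon's test for an outlying value was not applied to groups of 3 libraries.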

How the results depend on the processing

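The GNG2 difference of responses ran from -0.87 (without SK-N-BE(2) ML210 replicate 2) to -0.74 over 18 alternatives, and its response labelled SK-N-BE(2) from -0.85 to -0.74. Its difference between line labels was 0.09 in control libraries only, the opposite sign to the mean over both treatments. Of the 9 other members, 1 (GNB4) was called labelled SK-N-BE(2) and over both lines without SK-N-BE(2) ML210 replicate 3, and 0 without any other library. The numbers of genes called depend far more on the setting. Labelled SK-N-AS, 6 were called, 52 by the DESeq2 Wald test, 33 with no filter and 21 with only that line's libraries. Labelled SK-N-BE(2), 279 were called, and 790, 556 and 51 under the same settings. For the mean of both lines DESeq2 called 825 and no filter 531, and for the difference of the responses 45 and 24. With the replicate block 455 were called labelled SK-N-BE(2). With the block within each line 38, 1386, 1240 and 85 were called labelled SK-N-AS, labelled SK-N-BE(2), for the mean and for the difference. The block changed the call of no member, and it changed the calls given for GNG8 and PLCB1. Genes named for a difference between line labels were followed across settings in that comparison only. Whether the block within each line changed their ML210 calls was not followed gene by gene. Leaving out 1 library gave 3 to 13 genes labelled SK-N-AS, 48 to 1242 labelled SK-N-BE(2), 63 to 1006 for the mean and 1 to 156 for the difference. The highest of each range was without SK-N-BE(2) ML210 replicate 3. The causes were not tested. KCTD5 was not called between labels in controls only (0.17, adjusted p = 0.0829), nor FNTB in ML210 libraries only (-0.21, adjusted p = 0.0659). Low counts limit GNG3, GNG7 and GNG10, which had under 200 reads per line label.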
